A study of Mus musculus with 2 samples.

Results

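The enzymes that modify and cross-link collagen were followed through muscle repair in single cells. The set held 10 genes of the 27998 in the deposited count tables, listed by name with earlier results of these data known: the lysyl oxidases Lox, Loxl1, Loxl2 and Loxl3, the lysyl hydroxylases Plod1 and Plod2, the prolyl 4-hydroxylase alpha subunits P4ha1, P4ha2 and P4ha3, and the collagen chaperone Serpinh1. All 10 had counts in both libraries. Each library was a droplet (10x Chromium v3, 3' end) single-cell RNA library of the tibialis anterior, the shin muscle, of a mouse labelled C57Bl/6 (C57BL/6J in the methods of the study), taken 2 or 7 days after the muscle was injured with notexin, a toxin from snake venom that destroys its fibres. Both libraries are labelled as 7 months old and female. The deposited cell annotation instead gives male mice of 4 months (day 2) and 7 months (day 7), and the libraries held 5 and 1 counts of Xist beside 6575 and 4856 counts of 4 Y-linked genes. There was 1 library and 1 mouse per day, so the day, the mouse, the library and the age in the annotation cannot be told apart, no difference between days has a replicate check, and no p-value is given. The 95% intervals in parentheses cover counting error and nothing else.

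Counts are unique molecular identifiers (UMIs), 1 for each captured RNA molecule. They were summed over all cells that carried the same annotated cell type, and a level is given in counts-per-million (CPM) of that cell type's counts. After the limits on quality 3208 cells remained at day 2 and 3221 at day 7, with medians of 9010 and 6557 counts. The libraries shared 4 cell barcodes, of which 1 was among the cells kept in both. The interstitial fibroblasts of muscle, called fibro-adipogenic progenitors (FAPs), were 215 cells at day 2 and 805 at day 7, and tenocytes, the cells of tendon, were 16 and 48. Mural cells, annotated as smooth muscle, were 304 and 232, endothelial cells 336 and 333, and monocytes and macrophages 1292 and 757. FAPs held more counts per cell at day 2, with a median of 24329 against 8429 at day 7. RNA content per cell and sequencing depth cannot be told apart here.

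Collagen is modified while it is being folded and again after it has left the cell. In the endoplasmic reticulum, prolyl 4-hydroxylase, made of alpha subunits and the beta subunit P4hb, adds hydroxyl groups to prolines that hold the triple helix together, lysyl hydroxylases do the same to lysines, and Serpinh1 binds the folded helix on its way out. Outside the cell, copper-dependent lysyl oxidases convert lysines of collagen and elastin to the reactive aldehydes from which covalent cross-links form, and hydroxylated lysines give the more stable cross-links known from scar tissue.

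The annotated types were first set against their markers. All 3 FAP cell types held counts of 4 of 4 FAP markers (Pdgfra, Dcn, Lum, Gsn) on both days. Markers of other cell types also differed between days in them. The 5 tenocyte markers summed to 153 and 1287 CPM in Pro-remodeling, 362 and 823 CPM in Adipogenic and 2.36 and 235 CPM in Stem FAPs, mostly from Thbs4, and Adipogenic FAPs held 904 CPM of the 5 neutrophil markers at day 2 and 1.21 CPM at day 7. Their part in the FAP ratios was not tested. Tenocytes held 5 of 5 tenocyte markers, at a summed 21931 CPM at day 2 and 15437 CPM at day 7, but also 12596 and 10405 CPM of the FAP markers, largely Dcn. Most of the tenocyte sum was Thbs4, at 19360 and 10696 CPM, which 25 of 215 FAPs at day 2 and 542 of 805 at day 7 also held. Tnmd was found in 8 of 16 tenocytes at day 2 and 14 of 48 at day 7, Scx in 7 and 14, and Fmod in 13 and 19, so a smaller part of the cells under this label held its defining markers at day 7, although the summed levels were higher, at 171 and 560 CPM for Tnmd, 88.7 and 119 CPM for Scx and 2280 and 3986 CPM for Fmod. Tenocyte ratios are given below also for the 14 and 23 cells with a count of Tnmd, Scx, Mkx or Fmod. Monocytes and macrophages held 5 of 5 markers of their own on both days in each of the 6 types, beside a dendritic marker, H2-Ab1, a class II antigen-presenting gene, at 620 and 7740 CPM over the class. The other 3 dendritic markers, Flt3, Xcr1 and Cd209a, were below 3 CPM there on both days. The smooth muscle label was less clean. It held 2352 and 4400 CPM of the 6 mural markers next to 2715 and 4804 CPM of the 5 endothelial markers, and 124 of the 304 cells at day 2 and 90 of the 232 at day 7 had no more endothelial than mural marker counts. The part of endothelial RNA in the mural values was not tested beyond the values given below without those cells.

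Most counts of the 4 lysyl oxidases in the set lay in FAPs on both days. FAPs held 97.4% of all Loxl1 counts in annotated cells at day 2 and 83.5% at day 7, 86.9% and 87.5% of Loxl3, and 71.0% and 90.9% of Loxl2. For Lox the shares were 66.2% and 77.5%, and the 16 tenocytes of day 2 alone held a further 31.7%. Among the hydroxylases the FAP share of Plod2 was 73.8% and 68.5%, that of P4ha2 47.3% and 80.9%, and that of P4ha3 22.2% (8 of 36 counts) and 88.3%. At day 2 the largest shares of Plod1 (49.3%) and of P4ha1 (50.1%) were in monocytes and macrophages, and at day 7 FAPs held 57.7% and 56.3% of them. These shares follow the number of cells of each type as well as their levels: there were fewer FAPs and more monocytes and macrophages at day 2. Serpinh1 counts were split between FAPs (48.6%), mural cells (33.1%) and endothelial cells (15.1%) at day 2, and FAPs held 70.0% of them at day 7.

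**Figure D1:**
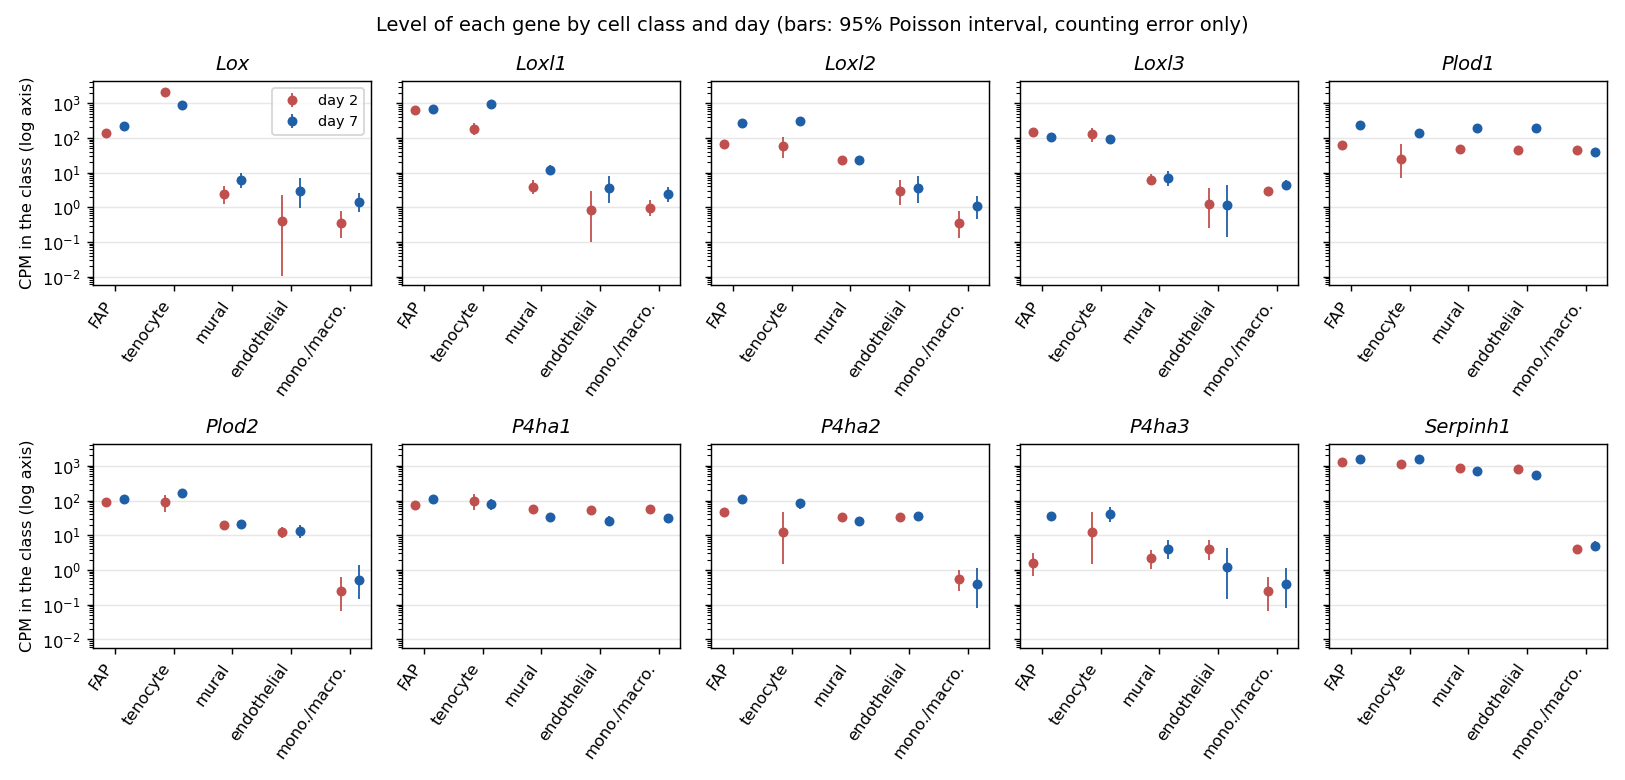
Level of the 10 genes in 5 cell classes, in CPM of the class on a log axis, at day 2 (red) and day 7 (blue), with 95% Poisson intervals for counting error. The lysyl oxidases sit above 50 CPM in FAPs and tenocytes and below 25 CPM in mural, endothelial and monocyte/macrophage cells, whereas Plod1 and P4ha1 are above 20 CPM in all 5 classes, and Serpinh1 is above 500 CPM in the first 4 and near 5 CPM in monocytes and macrophages.

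A gene was counted as higher or lower at day 7 when its CPM differed at least 2-fold between the libraries and it had at least 50 counts over both. In FAPs 4 of the 10 genes were higher at day 7 (Loxl2, Plod1, P4ha2 and P4ha3) and 0 were lower. Of all 10391 genes tested in FAPs 22.7% were higher and 14.4% lower, 37.1% in all, so the count of 4 of 10 is near that background and is no result about the set. The median log2 ratio of day 7 to day 2 was 0.66 over the 10 genes and 0.15 over all genes tested, and ratios below are given without subtracting that shift. Summed, the 10 genes made up 2500 CPM of FAP counts at day 2 and 3485 CPM at day 7. In tenocytes 8 of the 10 had enough counts, of which 3 were higher (Loxl1, Loxl2 and Plod1) and 1 was lower (Lox), against 20.8% higher and 16.1% lower of 1785 genes tested (36.9% in all). In mural cells 2 of 8 were higher, Loxl1 and Plod1, against 11.2% higher and 7.34% lower of 9361 genes (18.5% in all). In endothelial cells 1 of 5 was higher, Plod1, against 12.1% higher and 9.46% lower of 7657 genes (21.5% in all), and in monocytes and macrophages 0 of 4 passed 2-fold, against 15.4% higher and 13.1% lower of 9966 genes (28.5% in all). The medians over members were 0.70 in tenocytes, 0.04 in mural cells, 0.08 in endothelial cells and 0.06 in monocytes and macrophages, beside medians over all genes of -0.05, 0.06, 0.01 and -0.09. With so few genes in the set, none of these counts is read as a result about the set, and the genes are described one by one.

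**Figure D2:**
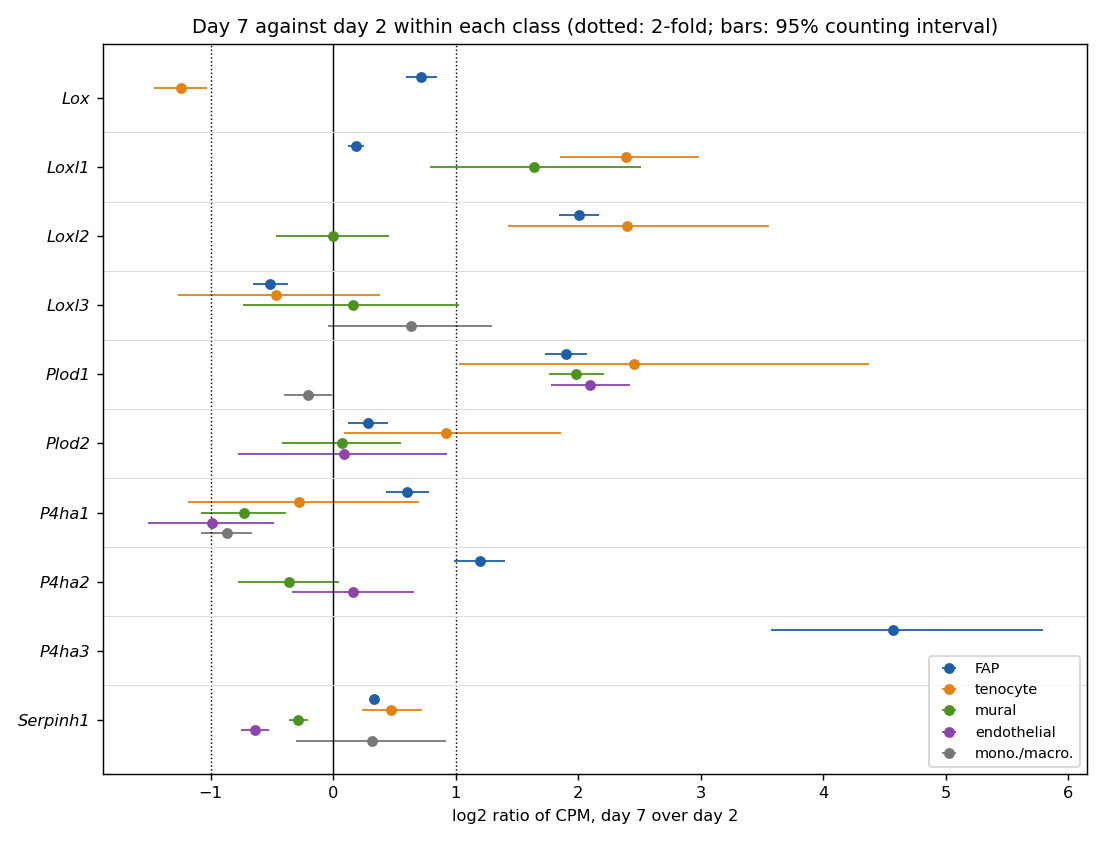
Log2 ratio of CPM at day 7 over day 2 for each gene with at least 50 counts in a class, with 95% counting intervals. Dotted lines mark a 2-fold difference. Over all cells of each label, Plod1 lies near 2 in the 4 stromal classes and near 0 in monocytes and macrophages. Lox lies on opposite sides of 0 in FAPs and tenocytes. P4ha1 lies above 0 in FAPs and below 0 in mural, endothelial and monocyte/macrophage cells.

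Of the 4 lysyl oxidases in the set, Loxl2 had the largest ratio between days in FAPs. Loxl2 (ENSMUSG00000034205, chr14:69609068-69695834, plus strand, build GRCm38), a lysyl oxidase with scavenger receptor domains that is known from basement membrane and fibrotic tissue, was at 68.8 CPM (353 counts) at day 2 and 275.7 CPM (2247 counts) at day 7. The log2 ratio was 2.00 (1.84 to 2.17), a 4.01-fold higher level at day 7. The difference was present in each of the 3 FAP cell types of the annotation: the log2 ratio was 2.21 (2.01 to 2.42) in Pro-remodeling FAPs, 1.91 (1.22 to 2.68) in Adipogenic FAPs and 2.10 (1.78 to 2.43) in Stem FAPs. FAPs were then thinned to 2000 counts each, leaving out the 2 of 215 at day 2 and 20 of 805 at day 7 that had fewer, and other classes in the same way. Of the thinned FAPs 13.1% of FAPs had a Loxl2 count at day 2 and 40.1% at day 7, against 0.155% and 0.398% of monocytes and macrophages (65.6% and 80.9% of FAPs before thinning). Tenocytes showed a ratio of similar size, from 57.0 CPM (9 counts) to 299.9 CPM (134 counts), log2 2.40 (1.43 to 3.56), and 1.39 (0.33 to 2.62) among those with a defining marker. The summed counts of mural cells did not: Loxl2 was at 22.9 CPM on both days (117 and 62 counts), with a log2 ratio of 0.00 (-0.47 to 0.45). By mean over single mural cells it was at 25.4 and 39.7 CPM, and after thinning 5.30% and 8.07% of them had a count. Loxl2 made up the largest part of the mural counts of the 4 lysyl oxidases, 64.6% at day 2 and 47.3% at day 7. Shares among lysyl oxidases leave out Loxl4, which is not in the set and had at most 1.25% of the counts of all 5 in FAPs and tenocytes and 5.24% in mural cells.

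Lox differed in opposite directions in the 2 cell types that held nearly all of it, a contrast between cell types that was not tested. Lox (ENSMUSG00000024529, chr18:52516067-52529867, minus strand), the founding member of the family and the main cross-linking enzyme of fibrillar collagen and elastin, was at 135.2 CPM (694 counts) in FAPs at day 2 and 222.5 CPM (1813 counts) at day 7, a log2 ratio of 0.72 (0.59 to 0.85) that stayed short of 2-fold. In tenocytes it was at 2109 CPM (1888 to 2348, 333 counts) at day 2 and 889 CPM (803 to 980, 397 counts) at day 7, a log2 ratio of -1.25 (-1.46 to -1.03), or a 2.37-fold higher level at day 2. The day 2 tenocyte level thus stood above every other cell type on either day, the nearest being the tenocytes of day 7, and the counting intervals of these 2 do not overlap. It rests on 16 cells, of which 15 had a Lox count, and the cell with the most Lox counts gave 25.5% of them at day 2 and 28.5% at day 7. The median of the single cells was 1101 CPM at day 2 and 366 at day 7, and leaving out any 1 of the 64 tenocytes gave log2 ratios from -1.63 to -1.07. Among the tenocytes with a defining marker Lox was at 2202 CPM (328 counts) and 1228 CPM (317 counts), log2 -0.84 (-1.07 to -0.62), which is no longer past 2-fold. In FAPs the ratio was 0.63 in the Pro-remodeling, 0.97 in the Adipogenic and 1.04 in the Stem cells, the last just past 2-fold. After thinning, 14.6% of FAPs at day 2 and 29.2% at day 7 had a Lox count, whereas without thinning the shares were 66.0% and 64.0%. In monocytes and macrophages, which should lack it, the thinned shares were 0% of 1290 cells (exact Clopper-Pearson upper limit 0.286%, for cells with a count after thinning) and 0.266% of 753, and without thinning 0.464% and 1.45% had a count, at median depths before thinning of 11696 and 8546 counts.

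**Figure D3:**
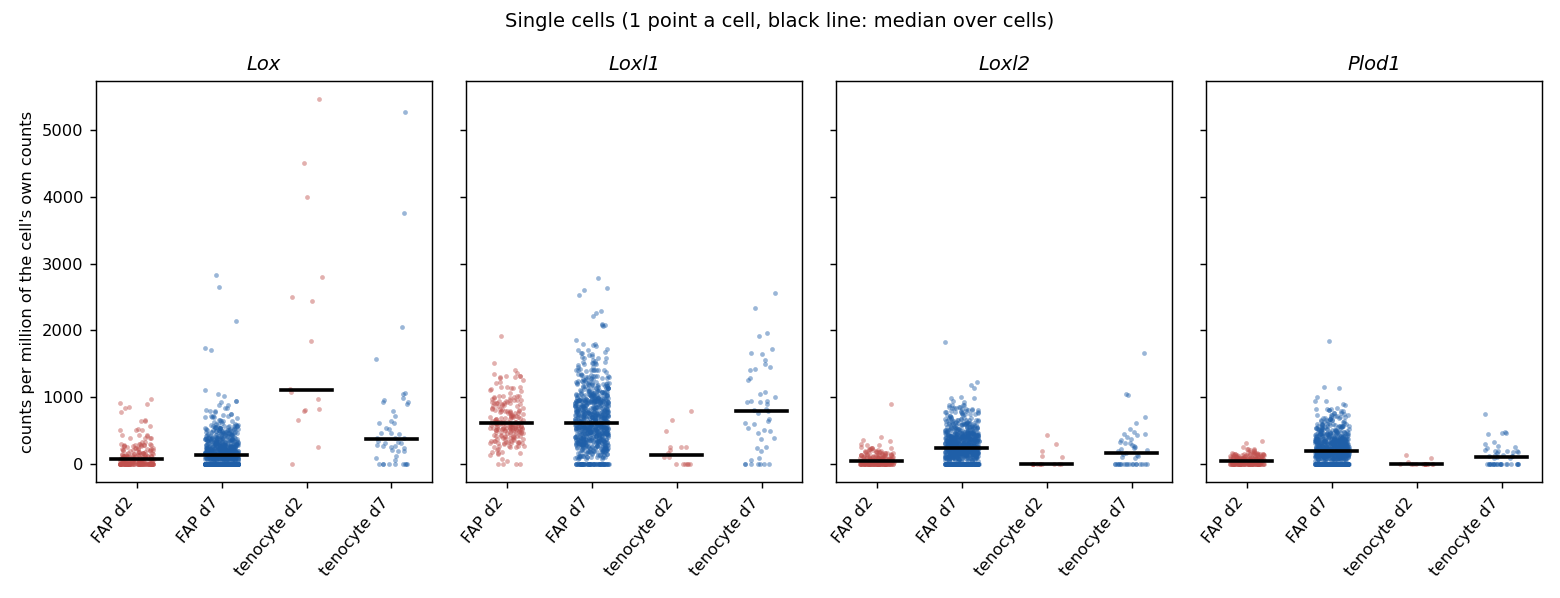
Single-cell CPM, on the cell's own total, for Lox, Loxl1, Loxl2 and Plod1, 1 point per cell, in FAPs and tenocytes at day 2 (d2, red) and day 7 (d7, blue), with the median as a black line. Lox has its highest median in the 16 tenocytes of day 2, while the medians of Loxl1, Loxl2 and Plod1 are higher in the tenocytes of day 7 than in those of day 2; cells at the bottom have no count, and the FAPs of day 2 hold more counts per cell than the others.

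Loxl1, a small part of the counts of the 4 lysyl oxidases in tenocytes at day 2, was a larger part at day 7. Loxl1 (ENSMUSG00000032334, chr9:58287738-58313186, minus strand), an enzyme needed for the upkeep of elastic fibres, was at 183.7 CPM (29 counts) in tenocytes at day 2 and 965 CPM (431 counts) at day 7, a log2 ratio of 2.39 (1.85 to 2.99). Single-cell medians were 136 and 796 CPM, and leaving out any 1 cell gave ratios from 2.24 to 2.56. Among the tenocytes with a defining marker the log2 ratio was 2.27 (1.66 to 2.95), and Loxl1 had 201 counts at day 7 beside 317 of Lox. In FAPs it differed little between libraries, at 618 CPM (596 to 640) and 703 CPM (685 to 722), log2 0.19 (0.12 to 0.25), close to the median of all genes. Lox was 85.2% (81.2 to 88.5) of these counts in tenocytes at day 2 and 39.6% (36.5 to 42.7) of those at day 7, while Loxl1 was 7.42% (5.02 to 10.5) and 43.0% (39.9 to 46.1). In FAPs Loxl1 made up the largest part on both days, at 63.6% and 53.8%. In mural cells Loxl1 was 3.11-fold higher at day 7, but on 20 and 33 counts (3.92 and 12.2 CPM), while its level in cell-free barcodes, those with 1 to 100 counts, was 34.4 and 99.9 CPM. The part of free RNA in that difference was not tested. Mural Loxl1 had under 50 counts, too few to be called, with values corrected for free RNA. The same held without cells that had more endothelial than mural marker counts.

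Of the 4 lysyl oxidases in the set, Loxl3 alone had a lower level in FAPs at day 7. Loxl3 (ENSMUSG00000000693, chr6:83034173-83052562, plus strand), another family member with scavenger receptor domains, was at 149.6 CPM (768 counts) and 104.7 CPM (853 counts), a log2 ratio of -0.52 (-0.66 to -0.37) that stayed short of 2-fold. Stem FAPs passed it, from 129.2 CPM (164 counts) to 55.4 CPM (34 counts), log2 -1.22 (-1.80 to -0.68), whereas Adipogenic FAPs were at 84.2 and 99.0 CPM, log2 0.23 (-0.34 to 0.85). Loxl2 and Loxl3 thus had opposite signs in FAPs, and Loxl2 went from 7.08% to 21.1% of their counts of the 4 lysyl oxidases while Loxl3 went from 15.4% to 8.01%. In tenocytes Loxl3 had 20 and 41 counts, log2 -0.46 (-1.27 to 0.38), an interval that includes no difference, and -0.36 (-1.33 to 0.64) among those with a defining marker. By mean over single tenocytes it was at 222 and 98.3 CPM, a difference past 2-fold.

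The lysyl hydroxylase Plod1 was the 1 member past 2-fold in all 4 stromal classes. Plod1 (ENSMUSG00000019055, chr4:147909753-147936767, minus strand) acts mainly on lysines in the helical part of collagen. It was at 62.9 CPM (323 counts) and 234.8 CPM (1914 counts) in FAPs, log2 1.90 (1.73 to 2.07). Mural cells were at 48.9 and 193.7 CPM (250 and 525 counts), log2 1.98 (1.76 to 2.21), and endothelial cells at 45.4 and 193.7 CPM (110 and 325 counts), log2 2.09 (1.78 to 2.42). Tenocytes gave log2 2.45 (1.03 to 4.37) on 4 and 62 counts, and 2.29 (0.81 to 4.25) on 4 and 34, under the 50 needed, among those with a defining marker. Over all cells of each label, the level at day 7 was thus between 3.73-fold and 5.48-fold that at day 2. The counting intervals of these 4 ratios overlap. Without cells that had more endothelial than mural marker counts, the mural ratio was smaller and below that range, as given below. Monocytes and macrophages, at 44.6 CPM (735 counts) and 38.7 CPM (291 counts), were close to mural and endothelial cells at day 2 and had a log2 ratio of -0.20 (-0.41 to -0.01).

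The Plod1 difference was also seen within the finer cell types. All 3 FAP types passed 2-fold, at log2 1.90 (1.70 to 2.09) in Pro-remodeling, 1.90 (1.19 to 2.70) in Adipogenic and 1.13 (0.57 to 1.68) in Stem FAPs, as did Capillary (2.34, 1.88 to 2.81) and Stem (1.88, 1.33 to 2.44) endothelial cells, where 10.8% and 11.4% of the genes tested were higher. Artery and Vein endothelial cells had log2 ratios of 1.82 (6 and 28 counts) and 1.72 (11 and 21 counts), on too few counts to be called. In thinned cells Plod1 was found in 11.7% and 35.3% of FAPs, in 30 of 302 and 67 of 223 mural cells, and in 9.04% and 32.5% of endothelial cells (67.0% and 74.5% of FAPs before thinning). Monocytes and macrophages had it in 8.37% and 7.70% of cells, and whether the shares differ between classes was not tested. In cell-free barcodes Plod1 was at 20.6 CPM and 61.6 CPM. In mural cells with no more endothelial than mural marker counts the log2 ratio was 1.29, still past 2-fold but smaller than over all cells of the label.

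Plod2 differed little between days. Plod2 (ENSMUSG00000032374, chr9:92542223-92608428, plus strand), the lysyl hydroxylase known for acting on the telopeptides, the ends of the collagen molecule from which stable cross-links start, was at 91.6 CPM (470 counts) and 111.7 CPM (910 counts) in FAPs, log2 0.29 (0.12 to 0.45). It was at 20.4 and 21.4 CPM in mural cells, log2 0.07 (-0.42 to 0.55), and at 12.4 and 13.1 CPM in endothelial cells, log2 0.08 (-0.78 to 0.93). In tenocytes, with 14 and 75 counts, the log2 ratio of 0.92 (0.09 to 1.86) was just short of 2-fold, and it was 0.83 (-0.10 to 1.85) among those with a defining marker. Of the summed counts of Plod1 and Plod2 in FAPs, the share of Plod1 was therefore 40.7% (37.3 to 44.2) in the day 2 library and 67.8% (66.0 to 69.5) in the day 7 library. Mural cells went from 70.6% to 90.1% Plod1 and endothelial cells from 78.6% to 93.7%, whereas monocytes and macrophages were at 99.5% and 98.6%, with 4 Plod2 counts on each day. The remaining lysyl hydroxylase gene, Plod3, is not in the set, and with its counts added the share of Plod1 was 25.2% and 55.2% in FAPs, 32.5% and 73.9% in mural cells, 31.4% and 73.7% in endothelial cells, and 43.6% and 40.1% in monocytes and macrophages.

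**Figure D4:**
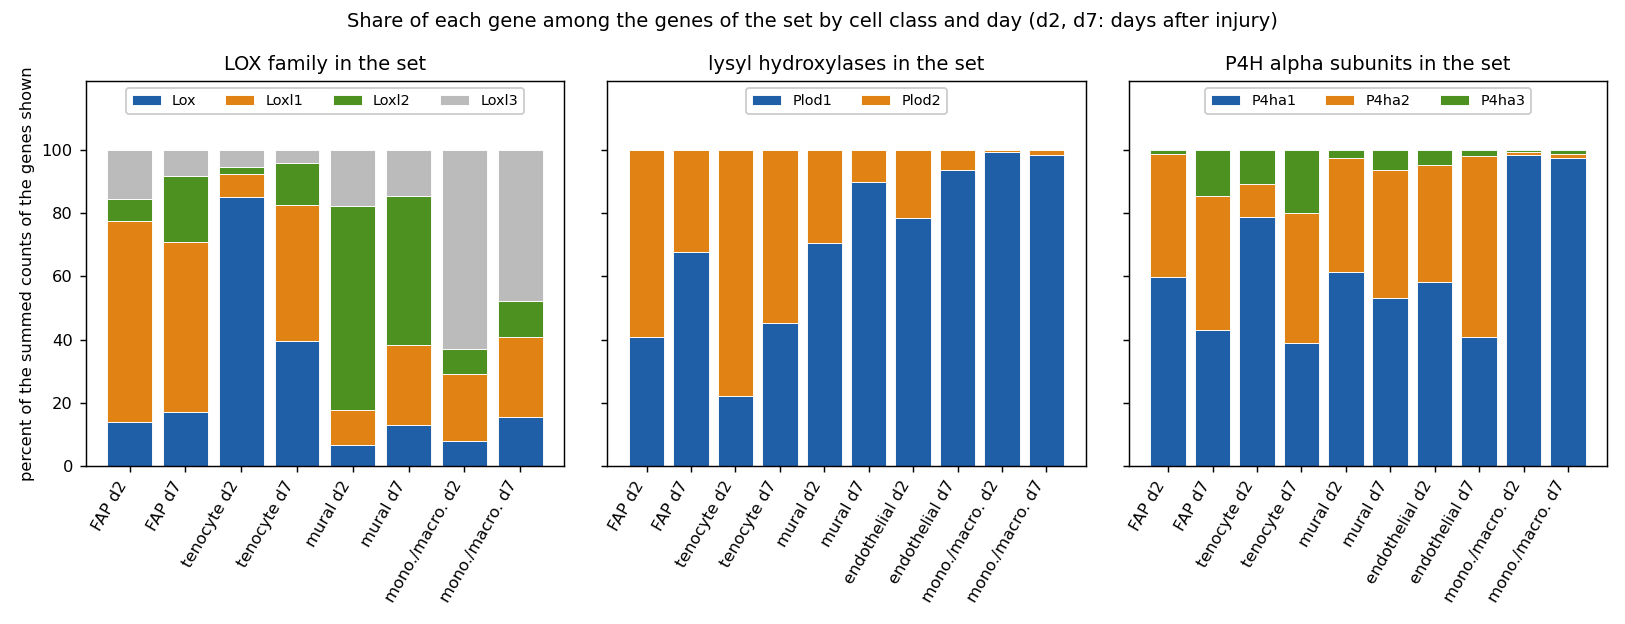
Share of each gene in the summed counts of the genes of its family that are in the set (without Loxl4 and Plod3), in percent, by cell class and day (d2, d7). Endothelial cells are left out of the lysyl oxidase panel, where they had 13 and 19 counts. Lox makes up a smaller and Loxl1 a larger share in tenocytes at day 7, Plod1 takes a larger share of Plod1 and Plod2 counts at day 7 in FAPs, tenocytes, mural and endothelial cells, and P4ha3 goes from 1.28% to 14.4% of the alpha subunit counts of FAPs; the tenocyte bars of day 2 rest on 18 and 19 counts in the last 2 panels.

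The 3 alpha subunits of prolyl 4-hydroxylase, each of which forms an enzyme with P4hb, behaved differently from each other. P4ha1 (ENSMUSG00000019916, chr10:59323296-59373304, plus strand) is the widely used form, P4ha2 (ENSMUSG00000018906, chr11:54100095-54131665, plus strand) is known from cartilage, bone and endothelium, and P4ha3 (ENSMUSG00000051048, chr7:100285520-100319699, plus strand) is a form of low and restricted expression. Since the ratios of the 3 genes differed, the 250 bases before each start are shown here, from RefSeq on GRCm38.p6 and on the strand of the gene. Capitals mark ACGTG, a form of the core letters of the hypoxia response element, searched on both strands. Other forms of that core were not searched and are not marked.
P4ha1, chr10:59323046-59323295: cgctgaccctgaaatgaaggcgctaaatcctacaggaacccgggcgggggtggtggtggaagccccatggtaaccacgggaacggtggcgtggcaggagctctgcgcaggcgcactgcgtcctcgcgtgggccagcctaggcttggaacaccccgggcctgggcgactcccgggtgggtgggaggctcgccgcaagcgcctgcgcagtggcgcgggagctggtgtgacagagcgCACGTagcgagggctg
P4ha2, chr11:54100674-54100923: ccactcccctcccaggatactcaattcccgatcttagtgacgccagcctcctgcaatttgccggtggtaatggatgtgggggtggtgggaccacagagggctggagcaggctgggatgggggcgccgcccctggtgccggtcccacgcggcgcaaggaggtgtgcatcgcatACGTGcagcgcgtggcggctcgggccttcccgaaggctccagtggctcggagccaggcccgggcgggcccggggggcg
P4ha3, chr7:100285270-100285519: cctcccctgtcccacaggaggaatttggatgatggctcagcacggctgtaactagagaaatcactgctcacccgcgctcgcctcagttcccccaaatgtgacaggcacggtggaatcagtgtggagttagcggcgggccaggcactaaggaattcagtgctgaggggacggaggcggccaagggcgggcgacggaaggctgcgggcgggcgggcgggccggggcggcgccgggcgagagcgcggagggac
ACGTG was found 1 time before P4ha1, 16 bases from the start, and 1 time before P4ha2, 78 bases from the start, and 0 times before P4ha3. No window overlapped an annotated exon, and that of P4ha2 lay inside the annotated span of its own gene. Of the 10 genes 5 matched the RefSeq promoter table. Serpinh1 also held ACGTG, 171 bases before the start, and Plod1 did not, beside 16.6% of all 32851 promoter windows, and GAANNTTC, a heat shock element core, was in 0 of the 5 and in 6.69% of all windows. A match is a description of letters and not a site. Lox, Loxl1, Loxl2, Loxl3 and Plod2 were not matched.

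P4ha1 was somewhat higher in FAPs at day 7 and lower in mural cells, endothelial cells, and monocytes and macrophages. In FAPs it was at 72.9 CPM (374 counts) and 110.7 CPM (902 counts), log2 0.60 (0.43 to 0.78). Monocytes and macrophages were at 59.1 CPM (974 counts) and 32.3 CPM (243 counts), log2 -0.87 (-1.08 to -0.67), and mural cells at 57.4 CPM (293 counts) and 34.7 CPM (94 counts), log2 -0.73 (-1.08 to -0.39). Both were short of 2-fold. Endothelial cells, at 52.0 CPM (126 counts) and 26.2 CPM (44 counts), were also just short of it at log2 -0.99 (-1.52 to -0.48). In cell-free barcodes P4ha1 was at 22.9 CPM and 32.0 CPM, near the day 7 levels of these 3 classes, and the part of free RNA in them was not tested. Dendritic cells were at 29.3 CPM (63 counts) and 42.3 CPM (44 counts), log2 0.53 (-0.06 to 1.11). The endothelial value joins finer types that differed. Capillary endothelial cells had 71 and 19 counts, log2 -1.42 (-2.24 to -0.68), and Stem endothelial cells 45 and 8 counts, log2 -1.73 (-3.03 to -0.63), both lower at day 7, where 10.6% and 13.1% of the genes tested in those types were lower. Artery cells had 5 and 7 counts and Vein cells 5 and 10, with a Vein log2 ratio of 1.79 (0.11 to 3.69), and with the 4 types weighted equally the endothelial ratio was -0.26. Among monocytes and macrophages P4ha1 was lower by CPM in all 6 annotated types and passed 2-fold in 3: M2 Cx3cr1_hi macrophages (-1.22), Patrolling monocytes (-1.16) and Cxcl10+ monocytes (-1.04), where 16.6%, 15.8% and 21.9% of genes tested were lower. In these 3 types the 4 dendritic markers, H2-Ab1 among them, summed to 4198, 253 and 1137 CPM at day 2 and 12730, 3810 and 8911 CPM at day 7. Nearly all of these marker counts over the class were H2-Ab1. The difference was not limited to these 3 types: M1 macrophages, which did not pass 2-fold for P4ha1, held 512 and 6875 CPM. The part of cells with these markers in the P4ha1 ratios was not tested.

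P4ha2 and P4ha3 were both higher in FAPs at day 7. P4ha2 was at 47.5 CPM (244 counts) and 108.8 CPM (887 counts), log2 1.20 (0.99 to 1.41), and was at 34.1 and 26.6 CPM in mural cells, log2 -0.36 (-0.78 to 0.05), and 33.0 and 37.0 CPM in endothelial cells, log2 0.16 (-0.34 to 0.66). Both of the latter intervals include no difference. P4ha3 was close to undetected in FAPs at day 2, with 8 counts over 215 cells (1.56 CPM), and had 301 counts over 805 cells (36.9 CPM) at day 7, log2 4.57 (3.57 to 5.79). Pro-remodeling FAPs had 3 and 198 counts, Adipogenic FAPs 0 and 80, and Stem FAPs 5 and 23, so that all 3 types held more P4ha3 at day 7, with too few counts in Stem FAPs to be called. With the day 2 count of 0 taken as 3, the level in Adipogenic FAPs was 5.77-fold higher at day 7. That value depends on the floor of 3 counts and is not an interval limit. After thinning, 0.469% of FAPs at day 2 and 6.11% at day 7 had a P4ha3 count, against 0% and 0.133% of monocytes and macrophages (3.26% and 18.9% of FAPs before thinning). P4ha3 thus went from 1.28% (0.553 to 2.50) to 14.4% (12.9 to 16.0) of the alpha subunit counts of FAPs, and P4ha1 from 59.7% to 43.2%. In tenocytes P4ha2 had 2 and 37 counts and P4ha3 2 and 18, in each case under the 50 needed.

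Serpinh1, the chaperone, was present at a high level in every stromal class and differed by less than 2-fold in each. Serpinh1 (ENSMUSG00000070436, chr7:99345376-99353239, minus strand) was at 1253 CPM (6430 counts) and 1576 CPM (12848 counts) in FAPs, log2 0.33 (0.29 to 0.38), and at 1115 CPM (176 counts) and 1549 CPM (692 counts) in tenocytes, log2 0.47 (0.23 to 0.72), or 0.29 (0.02 to 0.56) with a defining marker. Mural cells were at 857 and 703 CPM, log2 -0.29 (-0.37 to -0.21), and endothelial cells at 827 and 530 CPM, log2 -0.64 (-0.76 to -0.53). Whether the ratios differ between cell types was not tested. Within endothelial cells the ratio was below 0 in all 4 types, from -0.28 (-0.76 to 0.20) in Artery to -0.99 (-1.39 to -0.61) in Vein cells. Within FAPs it was 0.44 in Pro-remodeling, 0.04 (-0.10 to 0.19) in Adipogenic and -0.15 (-0.28 to -0.02) in Stem FAPs, so the value over all FAPs depends on the mix of types. Serpinh1 was at 3.94 and 4.92 CPM in monocytes and macrophages beside 129.4 and 239.0 CPM in cell-free barcodes.

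The FAP types differed in which of the genes passed 2-fold. Pro-remodeling FAPs (138 and 495 cells) had 4 of 10 higher and 0 lower, against 22.9% and 14.2% of 9698 genes, and these were the 4 genes of the whole class. Adipogenic FAPs (30 and 232 cells) had 3 of 10 higher, Loxl2, Plod1 and P4ha3, against 18.6% higher and 15.3% lower of 5245 genes. Stem FAPs (47 and 78 cells) had 4 of 9 higher, Lox, Loxl2, Plod1 and P4ha2, and 1 lower, Loxl3, against 14.3% and 23.7% of 5083 genes. Loxl2 and Plod1 were higher in all 3. As in the whole class, these counts are a description and not a result about the set.

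Fibrillar collagens, on which these enzymes act, were set beside them. All 6 fibrillar collagen genes listed were higher in FAPs at day 7 (22.7% of all genes tested there), with a median log2 ratio of 3.45 and a summed level of 3916 CPM at day 2 and 63272 CPM at day 7. Col1a1, the chain of type I collagen that makes up most of scar and tendon, was at 632 and 20135 CPM, log2 4.99 (4.94 to 5.04). Col3a1 was at 1563 and 25357 CPM, log2 4.02 (3.99 to 4.05). Col1a2 and then Col5a1 had the next largest ratios of the 6. Summed fibrillar collagen in FAPs thus differed by a larger factor than the 10 enzymes summed, at 2500 and 3485 CPM, while the counting interval of P4ha3 (3.57 to 5.79) includes the ratios of Col1a1 and Col3a1. Both type IV collagen chains listed were higher in FAPs (Col4a1 1.31, Col4a2 1.45), and of 3 elastic fibre genes Eln, at log2 3.01 (2.77 to 3.26), and Fbln5, at 3.61 (3.33 to 3.89), were higher, while Fbn1 was at 0.55. In tenocytes the 6 fibrillar collagens were also higher (20.8% of all genes), from a summed 5123 to 47579 CPM, and from 5391 to 42943 CPM among those with a defining marker. In mural cells 2 of 6 were higher (11.2% of all genes), with a median log2 ratio of 0.64. In endothelial cells the 3 with enough counts were higher (12.1% of all genes), with a median of 4.23 and a sum of 16.5 and 245.0 CPM, and in monocytes and macrophages 6 of 6 were higher (15.4%), with a median of 3.92 and a sum of 10.2 and 175.0 CPM. In cell-free barcodes the 6 genes summed to 345 and 9405 CPM, and the part of free RNA in these low levels was not tested. Type IV collagen was at 3753 and 4129 CPM in endothelial cells, where neither chain passed 2-fold.

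Other genes of collagen modification and processing gave a mixed count. Of 22 listed, 20 had enough counts in FAPs, 5 were higher and 1 was lower at day 7, with a median log2 ratio of 0.63, beside 22.7% higher and 14.4% lower of all genes tested in FAPs. The higher genes named by size were Colgalt2, a collagen galactosyltransferase, at log2 3.47 (2.59 to 4.49), Adamts2, which removes the amino-terminal propeptide of procollagen, at 2.13 (2.00 to 2.25), and Bmp1, which removes the carboxy-terminal propeptide, at 1.69 (1.56 to 1.81), with Pcolce and Fkbp14 also past 2-fold. Loxl4, the remaining lysyl oxidase gene, was lower, with 63 and 23 counts, log2 -2.12 (-2.88 to -1.41). In tenocytes 5 of 13 were higher (20.8% of all genes) and in mural cells 1 of 18 was higher and 1 lower (11.2% and 7.34%). In endothelial cells 0 of 13 passed 2-fold (21.5%), and in monocytes and macrophages 3 of 11 were higher and 1 was lower (15.4% and 13.1%). The shares in parentheses are those of all genes tested in the class, and on so few genes none of these counts is read as a result about the list.

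Genes known to be induced by low oxygen were listed as well. Of 15 listed, 11 had enough counts in FAPs, 1 was higher at day 7 (Pdk1, log2 1.98 on 15 and 94 counts) and 4 were lower, with a median of -0.66, beside 22.7% higher and 14.4% lower of all genes tested. Slc2a1, a glucose transporter, was at log2 -2.41 (-2.89 to -1.96), Adm, the peptide adrenomedullin, at -2.19 (-2.40 to -2.00) and Ldha, lactate dehydrogenase, at -2.13 (-2.21 to -2.05), with Vegfa also lower. In endothelial cells 4 of 11 were lower and 1 was higher, beside 9.46% and 12.1% of all genes, and in monocytes and macrophages 5 of 13 were lower and 1 was higher, beside 13.1% and 15.4%. Whether low oxygen has a part in the levels of the 10 enzymes was not tested.

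Across 29 cell type sums with at least 50 cells, which leaves out the tenocytes of both days, the members followed each other to different degrees. Pearson correlations of log2(CPM + 10) are given as a description, since the sums share 2 libraries and their depth. Lox and Loxl1 were the most alike pair of members (r = 0.97), followed by Lox and Loxl2 (0.93), and P4ha1 and Serpinh1 the least alike (0.28). Of 12295 genes outside the set, the most like Lox was Adamtsl1 (0.99), the most like Loxl1 was Egfr (0.99), the most like Loxl2 was Naalad2 (0.98) and the most like Loxl3 was Ptges (0.97). For P4ha1 it was P4hb (0.86), which encodes the other subunit of the same enzyme, for P4ha2 it was Nid1 (0.98), a basement membrane gene, and for P4ha3 it was Radil (0.97). For Plod1 it was Stx2 (0.88), for Plod2 it was P3h4 (0.95), which encodes a partner of lysyl hydroxylation, and for Serpinh1 it was Hspg2 (0.99), the basement membrane proteoglycan perlecan.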

How the data were processed

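Single-cell RNA was measured in 2 libraries, 1 for each day. UMI counts, whole numbers aligned to mm10, were deposited by the authors for all barcodes and for those called as cells. The file headers name Cell Ranger 3.0.1, the submitters' processing notes Cell Ranger 3.1.0 and Seurat 3.1.5. Estimated counts left after SoupX took out ambient RNA were deposited too, and served here, unrounded, for limits on cells and as an alternative. A further deposited table names the cell type of each annotated barcode. Doublets were removed by the authors with DoubletFinder before annotation, and no caller was run here. Cells had at least 750 genes, 1000 transcripts and at most 30% mitochondrial transcripts. Cells with no cell type entered no sum.

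Counts were summed per cell type and day and scaled to CPM. Intervals are exact Poisson for levels, Clopper-Pearson for shares and conditional binomial for ratios. Counts under 3 were taken as 3 when a gene was called past 2-fold. Thinning drew 2000 counts per cell without replacement. Intervals and calls were tested on simulated Poisson counts. That simulation had no variation between cells, mice or libraries, so it cannot show how the intervals do under such variation. Cells are not replicates. Python 3.11.15, numpy 2.4.6, scipy 1.17.1 and pandas 2.3.3 were used. Members and gene lists were chosen with earlier results of these data known. All 10 members are named, and of the other lists those with the 4 largest ratios in FAPs (at least 50 counts) with counts of the rest, and for each member the gene with the most similar pattern (of at least 100 counts). Genes named beyond these to complete a count of 5 or fewer were chosen after their values were seen. Coordinates are from GENCODE vM21 on GRCm38. Alternatives were SoupX values, no limits or stricter limits on cells (1500 genes, 3000 transcripts, 15% mitochondrial), means over cells, median-of-ratios scaling, equal weight for cell types, and other count minimums.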

Additional observations from a re-analysis of the deposited data

Results flagged for a closer look

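Several genes had a ratio of day 7 to day 2 of opposite sign in FAPs and in another class, with both counting intervals off 0. These differences between classes were not tested, since each class has 1 library a day. Lox was at log2 -1.25 in tenocytes (-0.84 among those with a count of Tnmd, Scx, Mkx or Fmod) against 0.72 in FAPs. Plod1 was at -0.20 in monocytes and macrophages against 1.90 in FAPs. Its mean over single cells in monocytes and macrophages was nearly the same on both days, at 40.8 and 40.4 CPM. The median log2 ratio of all genes tested in that class was -0.09. P4ha1 was at -0.73 in mural cells, -0.99 in endothelial cells and -0.87 in monocytes and macrophages against 0.60 in FAPs. Serpinh1 was at -0.29 in mural cells and -0.64 in endothelial cells against 0.33 in FAPs, where the types went from -0.15 (-0.28 to -0.02) in Stem to 0.44 in Pro-remodeling FAPs. The mural values are over all cells of the label, most of which had more endothelial than mural marker counts. The mural and endothelial values are thus not separate observations.

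Signal was also present in barcodes that no comparison used. The 680 day 2 and 477 day 7 barcodes that passed the same quality limits but were outside the annotation table held the 10 genes at a summed 743 CPM (721 to 766) and 860 CPM (828 to 892). The study describes removing putative doublets and a noisy cluster of cells. Whether these barcodes hold such cells was not tested. Cell-free barcodes, those with 1 to 100 counts, held the 10 genes at 254 CPM (236 to 272) and 595 CPM (574 to 617). The part of free RNA in these values was not tested.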

How the results depend on the processing

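The 4 FAP genes past 2-fold were the same 4 under every alternative run, and monocytes and macrophages had 0 genes past 2-fold with at least 50 counts. Endothelial cells went from 1 to 2 with the mean over cells, which added P4ha1 (log2 -1.32). Mural cells went from 2 to 1 with SoupX-corrected values and, in an alternative chosen after seeing the data, without cells that had more endothelial than mural marker counts. Loxl1 then had ratios of 1.73 and 1.60 but under 50 counts. Tenocytes went from 4 to 5 with the mean over cells, which added Loxl3 (-1.18), and from 4 to 2, Loxl1 and Loxl2, among cells with a Tnmd, Scx, Mkx or Fmod count, an alternative chosen after seeing the data, where Lox was at -0.84 and Plod1 had under 50 counts. Of 222 recomputed values of 35 ratios, 199 moved by no more than the counting interval, 23 moved further and 0 of those past 2-fold turned direction. Serpinh1 in monocytes and macrophages went from 0.32 to -1.27 with SoupX-corrected values, on 65 and 37 uncorrected but 15.8 and 2.44 corrected counts, under the 50 needed. Leaving out single tenocytes, also chosen after seeing the data, moved Plod2 between 0.73 and 1.16, so 1 cell decides whether it passes 2-fold, and added no other gene. The share of genes past 2-fold in FAPs was 41.3% at a minimum of 10 counts and 34.9% at 200. Of the 5 classes compared, depth limits tenocytes at day 2 most: they held 157904 counts, so 3 counts there equal 19.0 CPM. No paired analysis was possible because each day has 1 library and no result comes from a test.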

Other observations

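Counts of some of these genes also lay under the myogenic labels at day 7. The 312 myogenic cells of day 7 held 8.95% of all Loxl1 counts, 15.7% of Plod2 and 8.17% of Serpinh1. Muscle stem cells (137 cells) had Loxl1 at 281 CPM (244 to 321) and Serpinh1 at 628 CPM (573 to 688), and myoblasts and progenitors (175 cells) had 163 CPM (147 to 179) and 414 CPM (389 to 440), beside 99.9 and 239.0 CPM in cell-free barcodes. The muscle stem cell label held 1450 CPM of the 5 myogenic markers, but also 683 CPM of the FAP, 394 of the endothelial and 540 of the mural markers, and the myoblast label 3243, 329, 40.7 and 715 CPM. The part of other cells and of free RNA in these values was not tested. In these cells the counts of Lox, Loxl1, Loxl2 and Loxl3 were 87.0% Loxl1, and those of all 3 lysyl hydroxylases, Plod3 included, were 62.2% Plod2. Day 2 held 22 myogenic cells, with 10 counts of these 4 genes, so the days were not compared.

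Cells annotated as T cells had Serpinh1 at 242 CPM at day 2 and 240 CPM at day 7. At day 7 the 390 counts lay in 27 of 293 cells, and at day 2, 66.7% of the 66 counts lay in 1 cell. The same label held 760 and 976 CPM of the 5 endothelial markers, beside 257 and 1359 CPM of the 4 T and NK cell markers. Its part in the value was not tested.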
